A study of Mus musculus with 2 samples.

Results

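Collagen genes were examined in cells of the aortic arch from Apoe-/- mice, in 1 library from the control (ND) group and 1 from the high-fat and high-cholesterol diet (HFD) group. The family was taken as every gene whose symbol is Col, a number, the letter a and a number, which gave 44 of the 31053 genes counted. Of these, 42 had at least 1 UMI in the cells kept, and Col10a1 and Col6a4 had none. A unique molecular identifier (UMI) is a tag that lets each captured RNA molecule be counted once. In at least 1 of the fibroblast, mural, endothelial and immune classes, 25 members reached 50 UMIs over both libraries, and these are described with their levels. The other 17 were too rare for that and are given by their UMIs.

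Collagens are proteins of the extracellular matrix whose chains wind into a triple helix, in which each triplet of residues begins with glycine. Fibril-forming collagens (types I, II, III, V, XI, XXIV and XXVII) assemble into the fibres that bear load in the adventitia and in fibrous plaque, whereas type IV forms the network of basement membranes under endothelium and around smooth muscle. Other members coat fibrils, form beaded filaments, link basement membranes to the matrix around them or span the plasma membrane. In the artery wall, fibroblasts and smooth muscle cells are known as the main sources of fibrillar chains and endothelial cells as a source of type IV chains.

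All mice were male Apoe-/- mice on the C57BL/6 strain, and were 16 weeks of age when they were killed. This genotype lacks apolipoprotein E, a ligand by which lipoproteins are cleared from blood, and both groups carried it. The HFD group was fed this diet from weaning, while the control group received chow. Arches of 2 aortas were digested with a lung dissociation enzyme mix and pooled for each library, so the animals of a group cannot be told apart. Each diet is 1 library without replicates. Differences between diets therefore carry no test, and both values are given with exact 95% intervals in parentheses that cover counting error only.

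After the filter of the study, 5416 ND cells and 2739 HFD cells remained, with 27137322 and 17191279 UMIs. Median depth was 3732.5 (ND) and 5336 (HFD) UMIs per cell, the median mitochondrial share 16.8% and 21.9%, and 1 cell barcode was shared by the kept cells of both libraries. Barcodes that the filter left out still carried collagen RNA, at 1792 (ND) and 1435 (HFD) UMIs per 1000000 UMIs, the scale called CPM here. Cells were placed in classes by UMIs of marker genes that hold no collagen. A fibroblast cell needed 3 of Pdgfra, Dcn, Lum, Serpinf1 and Dpt, and a mural cell 3 of Notch3, Rgs5, Myh11, Cnn1, Lmod1, Kcnj8, Abcc9 and Higd1b. An endothelial cell needed both Pecam1 and Cdh5, and an immune cell 2 of Ptprc, Laptm5 and Coro1a. Mesothelial and Schwann cells had gates of their own. Cells that passed more than 1 gate were kept apart as mixed, 439 of the ND and 376 of the HFD cells.

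The fibroblast class held 921 ND and 392 HFD cells, the endothelial class 2048 and 1112, the immune class 1343 and 680, and the mural class only 39 and 15. Sums of the 5 fibroblast markers were 13598 CPM in ND fibroblasts and 10151 CPM in HFD fibroblasts, against 154 and 118 CPM in endothelial and 53.1 and 36.8 CPM in immune cells. The endothelial and immune classes thus held UMIs of fibroblast markers at a low level. The median depth was greater in the HFD library in each of the 4 classes, from 4132 against 4533 UMIs in mural cells to 3438 against 5654.5 UMIs in immune cells.

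The triplet rhythm of the chains can be read in the coding sequence, and 1 exon each of the 3 most counted fibrillar genes and of both type IV genes that dominate endothelium is shown for that reason. Sequences are from GENCODE M21 on GRCm38, 5′ to 3′ on the coding strand, each begins in frame, and capitals mark every glycine codon (GGN).
Col1a1, coding exon 8, chr11:94939904-94939957, plus strand: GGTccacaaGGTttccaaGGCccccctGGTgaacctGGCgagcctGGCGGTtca
Col1a2, coding exon 8, chr6:4515481-4515534, plus strand: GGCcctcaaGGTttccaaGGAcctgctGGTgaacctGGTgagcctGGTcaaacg
Col3a1, coding exon 6, chr1:45325360-45325413, plus strand: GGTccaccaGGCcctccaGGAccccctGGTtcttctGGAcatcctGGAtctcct
Col4a1, coding exon 9, chr8:11244486-11244569, minus strand: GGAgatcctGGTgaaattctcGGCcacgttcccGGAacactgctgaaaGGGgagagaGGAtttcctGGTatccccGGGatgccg
Col4a2, coding exon 12, chr8:11408052-11408144, plus strand: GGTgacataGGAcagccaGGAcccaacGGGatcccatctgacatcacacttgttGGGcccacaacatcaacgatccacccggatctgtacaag

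The exons were picked for their traits, so they illustrate the rhythm and do not compare the genes. Each of the 3 fibrillar exons is the first of its gene with 54 bases that carries a glycine codon at the start of each triplet of codons. Both type IV exons were picked for a break in the rhythm. Over whole coding sequences, the longest unbroken run of such triplets was 338 in Col1a1, 339 in Col1a2 and 344 in Col3a1, but 40 in Col4a1 and 66 in Col4a2. All 44 members had a complete coding transcript in the annotation. Exons of 54 bases made up 47% of the coding exons of fibril-forming members and 4.05% of those of type IV members, against 0.672% of all coding exons of the annotation. Fibril-associated members lay between, at 25.2%, and Col8a1, Col8a2 and Col10a1 had none.

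Col4a1 and Col4a2 start head to head on chromosome 8, and the genes overlap by 22 bases at their starts in RefSeq (GRCm38.p6, chr8:11312805-11312826). The overlap is shown because both genes share the region from which they are read.
Col4a2, plus strand: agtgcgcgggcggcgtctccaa
Strand use in the counting was not stated in the sources used here, and without strand a read inside the overlap could not be told apart between the 2 genes. Col4a3 with Col4a4 and Col4a5 with Col4a6 are arranged in opposite directions in the same way, with no overlap in the annotation.

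Collagen RNA was concentrated in fibroblasts. All members together made up 18238 (18101 to 18376) CPM of the ND fibroblast UMIs and 13919.9 (13749 to 14093) CPM of the HFD fibroblast UMIs, and no fibroblast of either library lacked a collagen UMI. Endothelial UMIs were collagen at 2176 (2148 to 2205) CPM for ND and 2906 (2865 to 2947) CPM for HFD. The immune class was lowest, at 126 (117 to 135) and 98.4 (89.4 to 108) CPM, and 70.6% of ND and 66% of HFD immune cells had no collagen UMI. In the mural class the libraries were far apart, at 3903 (3622 to 4199.9) CPM and 24522 (23542 to 25533) CPM, and most of that difference lay in 2 cells that are described below. The median fibroblast gave 1.45% (ND) and 1.02% (HFD) of its UMIs to collagen, with 11 and 10 members detected.

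**Figure D1:**
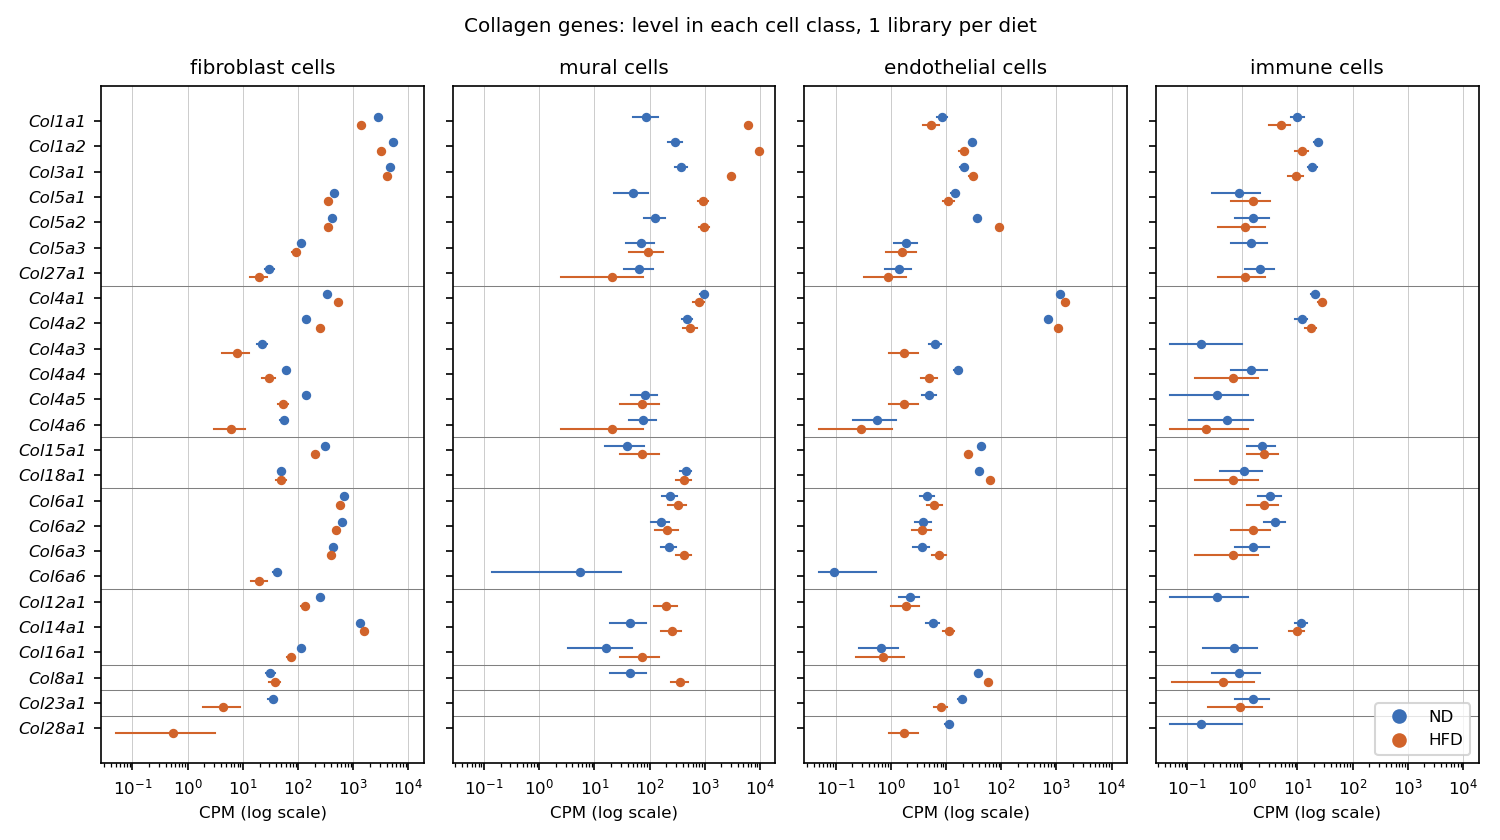
Level of the 25 named collagen genes (rows, grouped by kind of collagen and separated by grey lines) in CPM on a log axis, in 4 classes of cells, with points for the ND and HFD libraries and bars for exact 95% Poisson intervals. Genes with no UMI in a library have no point there. Fibrillar genes stood highest in fibroblasts and in HFD mural cells, Col4a1 and Col4a2 in endothelial cells, and no member passed 30 CPM in immune cells.

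The kinds of collagen were divided between the classes. In fibroblasts, fibril-forming genes took 74.4% (ND) and 68.2% (HFD) of collagen UMIs, while type IV genes took 4.1% and 6.3%. In endothelial cells the order was turned around, with 86.4% and 87.8% of collagen UMIs from type IV genes and 5.31% and 5.66% from fibril-forming ones. Of all Col1a1 UMIs in kept cells, 74.4% were in the fibroblast class and 18.7% in mixed cells, and of Col4a1 UMIs 69.5% were in the endothelial class and 18.5% in mixed cells. Col5a2, Col15a1, Col18a1, Col8a1 and Col23a1 were divided between fibroblasts, endothelium and mixed cells. Their endothelial part was 22.6%, 23.4%, 42.3%, 48.1% and 41.6% of their kept UMIs. In the same order, the fibroblast part was 48.4%, 55.8%, 13.7%, 11.2% and 22.2%. Mixed cells held 23.9%, 17.4%, 32.1%, 35.6% and 31.7%. Col4a3 and Col4a4 were also divided, with 37.5% and 37.7% in fibroblasts and 30.1% and 27.8% in endothelium.

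Type I collagen, the main fibre of the adventitia, is built from the chains of Col1a1 and Col1a2. Col1a2 (chromosome 6, 4504814 to 4541544) was at 5174 CPM in ND fibroblasts and at 3166 CPM in HFD fibroblasts, a log2 ratio of HFD over ND of -0.71 (-0.75 to -0.67). Col1a1 (chromosome 11, 94936224 to 94953042) was at 2782 and 1405 CPM, a log2 ratio of -0.99 (-1.05 to -0.92). Both chains were thus lower in the HFD library, Col1a1 by more than Col1a2, and their UMI ratio was 0.538 (0.525 to 0.551) in ND and 0.444 (0.423 to 0.465) in HFD fibroblasts. One HFD fibroblast held 8.58% of the Col1a1 UMIs of its class. Without cells over 10000 UMIs the log2 ratio of Col1a1 was -1.31. At a mitochondrial limit of 10%, which left 141 ND and 7 HFD fibroblasts, the direction turned, with log2 ratios of 1.66 for Col1a1, 1.28 for Col1a2 and 1.12 for all collagens together.

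Col3a1, the chain of type III collagen, which forms thinner and more pliable fibres with type I, was at 4607 CPM in ND and 4123 CPM in HFD fibroblasts. Its log2 ratio was -0.16 (-0.20 to -0.12), the same as the median of all 6452 genes that could be compared in fibroblasts, -0.16. It therefore stood apart from the type I chains, and Col3a1 UMIs per Col1a2 UMI were 0.890 (0.872 to 0.909) for ND and 1.30 (1.26 to 1.35) for HFD. The direction of Col3a1 turned in some settings, to 0.20 at a mitochondrial limit of 20% and to 0.02 without mitochondrial, haemoglobin and ribosomal genes. At a limit of 10%, with 7 HFD fibroblasts, it turned to 1.41. With equal weight per cell Col3a1 was lower, at -0.43, as were Col1a1 and Col1a2, at -1.32 and -0.93. A single HFD cell held 11.1% of the Col3a1 UMIs of the Pi16 subset, described below, where the log2 ratio was 0.02. There it was -0.13 without cells over 10000 UMIs. Type V chains, which set the width of type I fibrils, were also lower in HFD fibroblasts, with log2 ratios of -0.36 for Col5a1, -0.26 for Col5a2 and -0.30 for Col5a3. At the limit of 10%, Col5a1 and Col5a2 turned to 0.96 and 1.75, while Col5a3 was at -0.12 or below in every setting. Col27a1, a fibrillar gene of cartilage and other tissues, was at 30.2 and 19.3 CPM.

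The type IV chains of fibroblasts differed between the libraries in both directions. Col4a1 was at 332 CPM in ND and 532 CPM in HFD fibroblasts, a log2 ratio of 0.68 (0.56 to 0.80). Col4a2, its partner in the common network, was at 139 and 248 CPM, a log2 ratio of 0.83 (0.65 to 1.02). In the Pi16 subset alone the log2 ratios were 0.27 for Col4a1 and 0.36 for Col4a2, the lowest of the settings. Among the other subsets described below, Col4a1 was at 0.09 in Cxcl14 cells and 0.91 in Inmt cells. It was at 1.66 in Fmod cells, with 9 HFD cells, and 1.38 in unassigned cells. The part of subset makeup in the class ratios was not tested. The share of fibroblasts with a Col4a1 UMI, after each cell was thinned to 1000 UMIs, was 24.8% for ND and 35.2% for HFD, against 51.1% and 66.1% before thinning. The thinned shares were 18.5% and 18.6% in Pi16 cells and 28.5% and 54.2% in Inmt cells. In endothelial cells, where the gene is abundant, the thinned shares were 62% and 72.8%, and in immune cells 1.72% and 2.5%.

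The 4 rarer type IV chains were lower in HFD fibroblasts. Col4a5, a chain known from the kidney filter and smooth muscle, was at 139 and 53.6 CPM, from 514 and 97 UMIs. Col4a6, its neighbour on the X chromosome, had 204 UMIs in ND and 11 in HFD fibroblasts, at 55 and 6.08 CPM. The log2 ratios were -1.37 (-1.70 to -1.06) for Col4a5 and -3.18 (-4.20 to -2.31) for Col4a6. Col4a4 was at 60.7 and 29.3 CPM, and Col4a3 at 22.4 and 7.74 CPM with too few UMIs for the comparison. Every one of these 4 chains was thus below its ND level, while both abundant chains were above it.

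Of the type VI chains, which form a beaded filament around cells, Col6a1, Col6a2 and Col6a6 were lower in HFD fibroblasts. Col6a1 was at 689 and 576 CPM, Col6a2 at 616 and 481 CPM, and Col6a3 at 434 and 400 CPM, with log2 ratios of -0.26, -0.36 and -0.12. The last of these turned to 0.03 with the median of ratios, which adds the same amount to the log2 ratio of every gene. At a mitochondrial limit of 10%, Col6a2 and Col6a3 turned to 0.09 and 0.73. Col6a2 UMIs per Col6a1 UMI were 0.894 (0.844 to 0.946) and 0.835 (0.762 to 0.915), which overlap. Col6a6, a rare chain that can take the place of the third, was at 41.3 and 19.9 CPM.

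Among the collagens that coat fibrils, Col14a1 and Col12a1 went apart. Col14a1 was at 1331 CPM in ND and 1554 CPM in HFD fibroblasts, a log2 ratio of 0.22 (0.16 to 0.29), which turned to -0.72 at a mitochondrial limit of 10%. Col12a1, which is linked to mechanical load, was at 249.8 and 131 CPM, a log2 ratio of -0.93 (-1.14 to -0.72). Col16a1 was at 114 and 75.7 CPM. Col15a1, a proteoglycan that ties basement membranes to fibrils, was at 302 and 206 CPM, whereas Col18a1, its relative and the source of endostatin, was at 49.6 and 49.7 CPM. Col8a1, a short-chain collagen of vessel walls, was at 31.3 and 37.6 CPM, with intervals that overlap.

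Col23a1, a collagen that spans the plasma membrane and can be shed, had 129 UMIs in ND and 8 in HFD fibroblasts, at 34.8 (29.1 to 41.4) and 4.42 (1.91 to 8.71) CPM. The intervals are far apart, and the log2 ratio was -2.98 (-4.22 to -1.96). Its ND level was not carried by 1 cell, since the cell with the most Col23a1 UMIs held 5.43% of them.

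Of the 23 members that could be compared in fibroblasts, with at least 100 UMIs over both libraries and at least 4 in each, none was 2-fold higher in the HFD library and 5 were 2-fold lower, namely Col4a4, Col4a5, Col4a6, Col6a6 and Col23a1. Over all 6452 genes compared, 5.13% differed by 2-fold either way, 1.21% higher and 3.92% lower. The median log2 ratio of the members was -0.36, against -0.16 for all genes compared. Of the 5, 4 had 100 to 299 UMIs, where 4.26% of 3828 genes were 2-fold lower and the median gene was at -0.17. Col4a6 and Col23a1 were past 2-fold without the Fmod subset and with the median of ratios, while Col4a4 and Col6a6 were at -0.91 with the median of ratios.

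**Figure D2:**
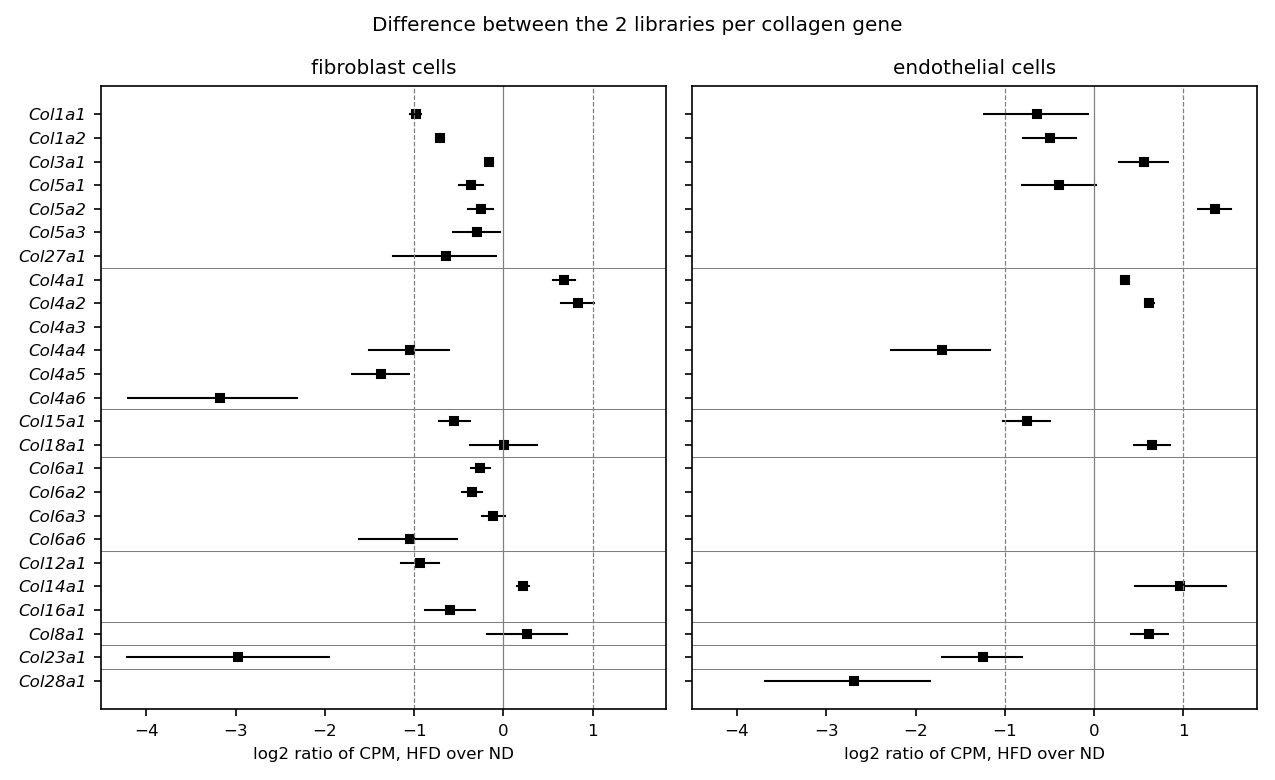
Log2 ratio of CPM, HFD over ND, for members that could be compared in fibroblast cells (left) and endothelial cells (right), with squares for the ratio, bars for exact 95% conditional binomial intervals, a solid line at 0 and dashed lines at 2-fold. Members are grouped as in the plot of levels. In fibroblasts Col4a1 and Col4a2 are among 5 members above 0, and Col4a4, Col4a5, Col4a6, Col6a6 and Col23a1 lie beyond 2-fold below it. In endothelial cells Col5a2 lies beyond 2-fold above 0, and Col4a4, Col23a1 and Col28a1 lie beyond 2-fold below it.

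Fibroblasts were divided by markers into subsets named Pi16, Fmod, Inmt and Cxcl14 after their leading gene. The Pi16 subset held 490 ND and 263 HFD cells, or 53.2% and 67.1% of the class. The Fmod subset made up 121 ND cells and only 9 HFD cells, the Inmt subset 164 and 59, and the Cxcl14 subset 15 and 24. With 1 library per diet, the part of dissection and digestion in these shares cannot be told apart from that of diet.

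The Fmod subset, named after a small proteoglycan that binds collagen fibrils, had the highest levels of type I chains, and in the ND library also of Col3a1. Its Col1a1 was at 7549 (7296 to 7809) CPM in ND and 8319 (7581 to 9108) CPM in HFD cells, and its Col1a2 at 12146 and 13110.3 CPM. Among the 9 HFD cells, 1 cell held 46.7% of the Col1a1 UMIs and 1 held 64.1% of those of Col3a1. Without cells over 10000 UMIs, which left 7 HFD cells, Col3a1 of the Fmod subset was at 8852 and 4079 CPM, the latter below the 6841 CPM of all HFD Cxcl14 cells, and Col1a1 at 7785 and 5841 CPM. Col1a1 was at 1779 (1723 to 1836) and 1153 (1096 to 1213) CPM in the Pi16 subset and at 3752 and 1335 CPM in the Inmt subset. The Inmt subset thus showed the wider gap between the libraries, with a log2 ratio of -1.49, against -0.63 in the Pi16 subset. Without the Fmod subset, the Col1a1 ratio of the whole class was -0.85 and that of all collagens -0.28, against -0.39 with it.

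Other members had their own subset. Col12a1 and Col14a1 were highest in Pi16 cells, where Col12a1 was at 365 and 169.97 CPM and Col14a1 at 1704 and 1982 CPM. In Inmt and Fmod cells Col14a1 was lower in the HFD library, at 776 and 682 CPM and at 1307 and 588 CPM. Col15a1 was highest in Cxcl14 cells, at 2108 and 1113 CPM, and was at 122 and 44.4 CPM in Pi16 cells. Cxcl14 cells were also highest in Col4a1, at 1978 and 2100 CPM, and in Col6a1, at 1432 and 1558 CPM. Col23a1 was at 101 CPM in ND Inmt cells, with 58 of its UMIs, and HFD Inmt cells had 3 UMIs. Both libraries placed Col12a1 and Col14a1 higher in Pi16 than in Cxcl14 cells and Col15a1 and Col4a1 lower, whereas Col1a2 changed order between these subsets, at 3934 and 2747 CPM in Pi16 cells and 3149.6 and 3444 CPM in Cxcl14 cells.

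**Figure D3:**
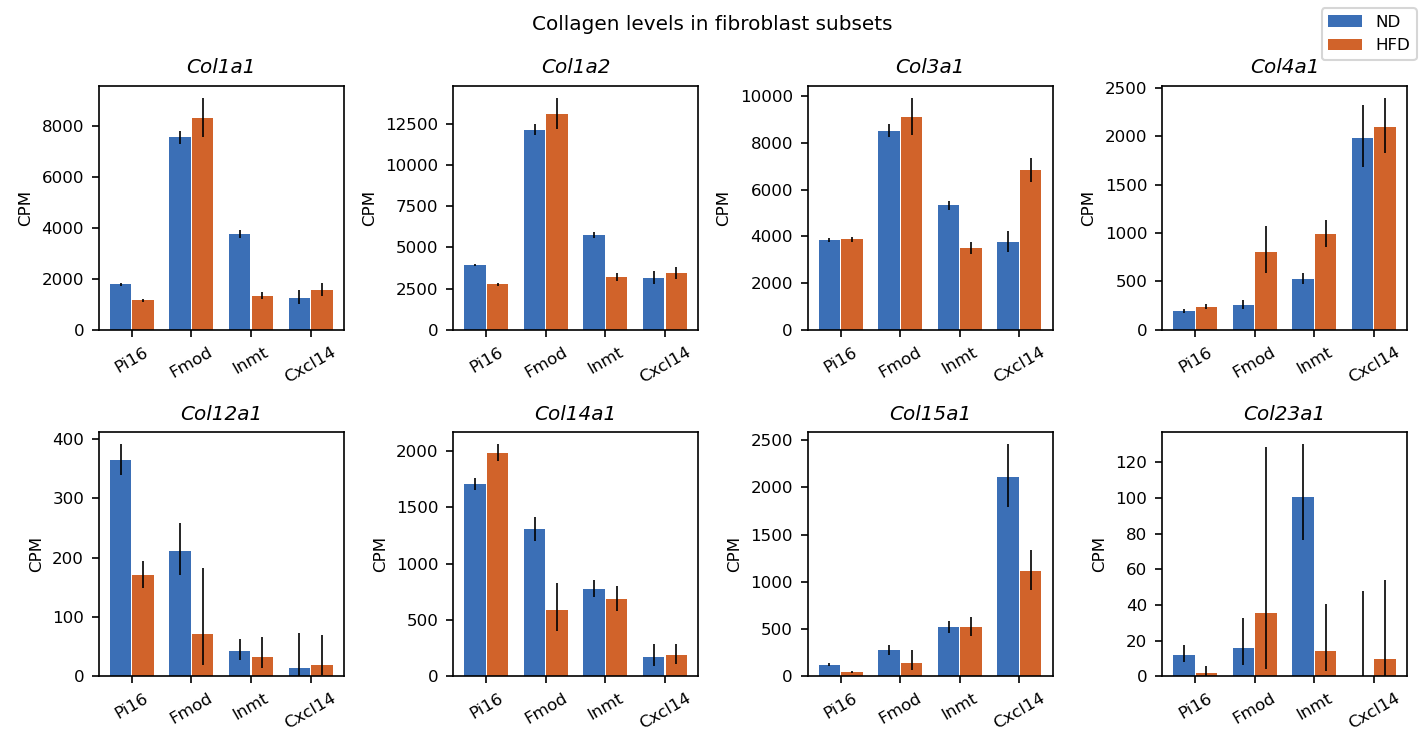
Levels of 8 collagen genes in CPM (bars from 0) in 4 marker-gated subsets of fibroblasts, for the ND and HFD libraries, with exact 95% Poisson intervals. Col1a1 and Col1a2 were highest in the Fmod subset, Col12a1 and Col14a1 in the Pi16 subset, and Col15a1 and Col4a1 in the Cxcl14 subset, and the Fmod bars of HFD rest on 9 cells, of which 1 held 64.1% of the Col3a1 UMIs.

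Across single fibroblasts thinned to 1000 UMIs, Col1a1 and Col1a2 went together, with a Spearman's rho of 0.62 over 894 ND cells and 0.33 over 392 HFD cells. The rho of Col1a2 with Col3a1 was 0.57 and 0.26, and that of Col1a2 with Col4a1 0.07 and 0.06. Cells of a library share its depth, its dissociation and its free RNA, and these values describe the libraries only.

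In endothelial cells the type IV pair dominated. Col4a1 (chromosome 8, 11198423 to 11312826) was at 1145 (1125 to 1166) CPM for ND and 1456 (1427 to 1485) CPM for HFD, a log2 ratio of 0.35 (0.31 to 0.38). Col4a2 was at 707 (691 to 723) and 1086 (1061 to 1111) CPM, a log2 ratio of 0.62 (0.57 to 0.67). Both chains were higher in the HFD library, Col4a2 by more, and Col4a2 UMIs per Col4a1 UMI were 0.617 (0.600 to 0.635) and 0.746 (0.724 to 0.769). The type IV pair was higher in the HFD library in each of the luminal, capillary and arteriolar subsets.

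Luminal cells, gated by Cytl1, Vcam1 and Vwf, differed from capillary cells in several collagens. Col4a1 was at 268 CPM in ND and 647 CPM in HFD luminal cells, against 1333 and 1550.2 CPM in capillary cells and 1187 and 1597 CPM in arteriolar cells. The top HFD luminal cell for each gene held 15.9% of the Col4a1 UMIs and 18.4% of the Col4a2 UMIs of that subset. In ND luminal cells these shares were 2.26% and 3.7%. Col5a2 was at 225 (201 to 250.01) CPM in the 208 luminal ND cells and 774 (712 to 839.9) CPM in the 87 luminal HFD cells, while capillary cells were at 1.58 and 1.71 CPM and arteriolar cells at 14.8 and 33.2 CPM. The luminal log2 ratio of Col5a2 was 1.78, and 1.36 (1.08 to 1.65) without cells over 10000 UMIs. Col8a1 was at 90.8 and 389 CPM in luminal cells and Col18a1 at 167 and 458 CPM. Without cells over 10000 UMIs, Col8a1 was at 45.9 and 433 CPM and Col18a1 at 138 and 334 CPM, so each was higher in the HFD cells with and without the largest cells. In the ND library, neither gene was highest in luminal cells. Col8a1 was at 106 CPM in ND arteriolar cells, and Col18a1 at 404 CPM in 24 ND cells gated as lymphatic by Ccl21a, Mmrn1, Prox1 and Lyve1.

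Not all luminal collagens were higher in the HFD library. Col4a3 and Col4a4, the rarer type IV chains, were held mostly by luminal cells, with 152 of 171 endothelial Col4a4 UMIs for ND and 32 of 34 for HFD. Col4a4 was at 102 CPM in ND and 43.2 CPM in HFD luminal cells, and Col4a3 at 40.3 and 13.5 CPM. Col23a1 was at 99.5 and 70.2 CPM, but at 78.6 and 84.1 CPM without cells over 10000 UMIs. The ND lymphatic cells also held it, at 82 CPM from 15 UMIs. In arteriolar cells, Col8a1 went the other way from luminal cells, at 106 and 47.2 CPM.

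Col15a1 and Col28a1 were found in capillary cells, gated by Gpihbp1, Cd36 and Rgcc, and in arteriolar cells. Col15a1 was at 55.2 and 33 CPM in capillary cells and at 33.2 and 10.3 CPM in arteriolar cells. Col28a1, a collagen with von Willebrand factor domains known from nerve, had 97 UMIs in ND and 8 in HFD capillary cells, at 14 and 1.71 CPM, and no UMI in luminal cells of either library. Arteriolar cells had Col28a1 at a like level, 12.1 (7.68 to 18.2) and 2.95 (0.804 to 7.55) CPM, from 23 and 4 UMIs. In the whole endothelial class its 120 and 12 UMIs gave 11.4 (9.46 to 13.6) and 1.76 (0.912 to 3.08) CPM. These UMIs were spread over 104 ND cells, and the cell with the most held 1.67% of them.

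**Figure D4:**
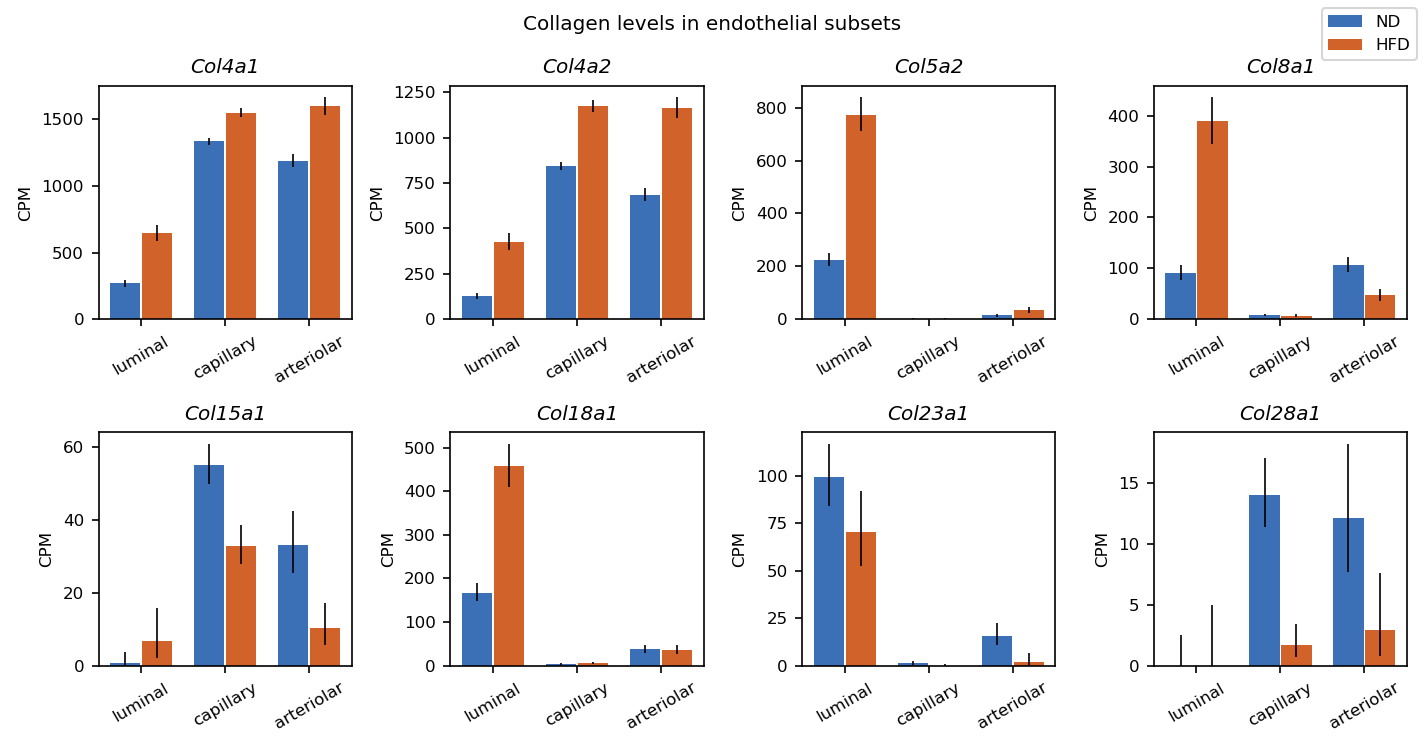
Levels of 8 collagen genes in CPM (bars from 0) in luminal, capillary and arteriolar endothelial cells of the ND and HFD libraries, with exact 95% Poisson intervals. Col5a2, Col8a1 and Col18a1 were higher in HFD than in ND luminal cells, Col4a1 and Col4a2 were higher in HFD cells of all 3 subsets, and Col28a1 was lower in HFD capillary and arteriolar cells.

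Of 14 members that could be compared in endothelial cells, Col5a2 was 2-fold higher in the HFD library and Col4a4, Col23a1 and Col28a1 were 2-fold lower. Among all 9182 genes compared there, 5.98% were past 2-fold, 1.18% higher and 4.8% lower. The log2 ratios were 1.35 (1.17 to 1.54) for Col5a2, -1.70 for Col4a4, -1.25 for Col23a1 and -2.69 (-3.69 to -1.84) for Col28a1. Without cells over 10000 UMIs, Col5a2 was at 0.72 and Col23a1 at -0.83 in the whole class, short of 2-fold. Col23a1 was also short of it at mitochondrial limits of 20% and 10%, with single-marker gates and with equal weight per subset, from -0.94 to -0.69, and Col4a4 at the limit of 10%, at -0.66. Luminal cells made up 10.2% of the ND and 7.82% of the HFD endothelial cells. The median of the members was -0.02 and that of all genes -0.16.

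Type I chains were scarce in the endothelial class. Col1a2 was at 29.4 CPM in ND and 20.9 CPM in HFD endothelial cells, and Col1a1 at 8.47 and 5.44 CPM. A Col1a2 UMI was found in 2.2% and 1.17% of thinned endothelial cells, against 2.32% and 2.06% of thinned immune cells. One HFD cell held 19.7% of the endothelial Col1a2 UMIs of its library.

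In the mural class, 2 HFD cells held 2111 of the 2355 collagen UMIs, or 89.6%. These cells had 21084 and 19376 UMIs, and collagen made up 6.88% and 3.41% of them. The first had 421 UMIs of Col1a1 and 626 of Col1a2, and the second 158 and 286. No other mural cell of either library gave over 1.38% of its UMIs to collagen. Without cells over 10000 UMIs, the class was at 4063 CPM for ND and 4390.4 CPM for HFD, and the log2 ratio for all collagens was 0.11 in place of 2.65.

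The first of these cells was placed in the class by Cnn1, Lmod1 and Abcc9, with 5, 1 and 1 UMIs, and the second by the same genes, with 4, 3 and 1 UMIs, and by 4 UMIs of Myh11, the heavy chain of smooth muscle myosin. Acta2, the actin of smooth muscle and of activated fibroblasts, had 67 and 145 UMIs, and Fn1, fibronectin, 258 and 208. Notch3, Rgs5, Pdgfra, Pecam1, Cdh5 and Ptprc had no UMI in either cell, and Lum had 17 and 7. In ND mural cells the sum of the fibroblast markers was 49.2 CPM and in HFD mural cells 302 CPM. Their doublet scores were at percentiles 92.2 and 89.4 of the HFD library, so that leaving out the highest 6% of scores did not remove them.

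**Figure D5:**
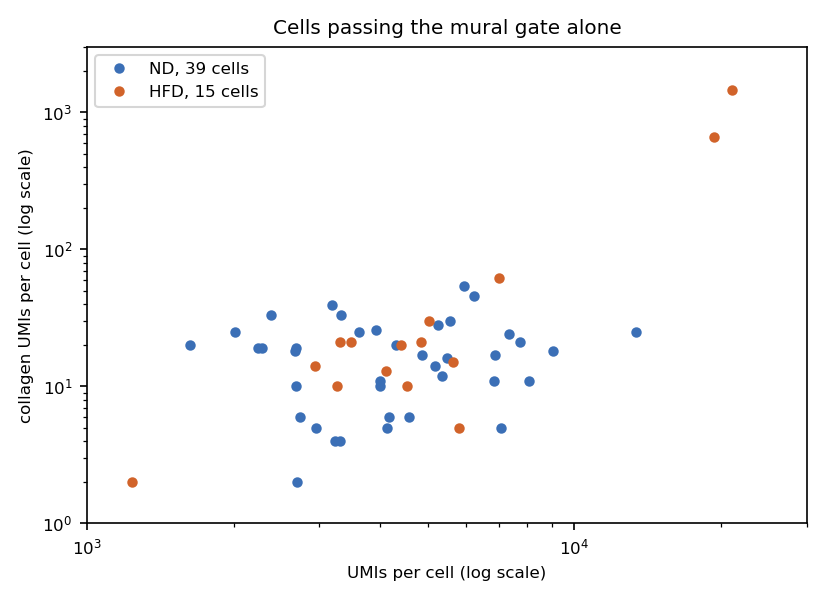
UMIs per cell against collagen UMIs per cell, both on log axes, for the 39 ND and 15 HFD cells that passed the mural gate alone. The 2 HFD cells at the upper right, with 19376 and 21084 UMIs, held 89.6% of the collagen UMIs of HFD mural cells, and the other cells of both libraries overlap.

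Of 7 members that could be compared in mural cells, Col1a1, Col1a2, Col3a1 and Col5a2 were 2-fold higher in the HFD library and none was 2-fold lower. In this small class 25.1% of 359 genes were past 2-fold, 8.08% higher and 17% lower. Col1a1 was at 87.5 CPM in ND and 6049.8 CPM in HFD mural cells, a log2 ratio of 6.11, which became -1.39 without cells over 10000 UMIs. Col3a1, Col5a1 and Col5a2 turned to -0.18, -0.56 and -0.11 without them, while Col1a2 went from 5.07 to 0.20 and kept its sign. Col4a1 was at 951 (815 to 1103) and 781 (614 to 979) CPM, Col4a2 at 481 and 541 CPM, and Col18a1 at 454 and 417 CPM, with intervals that overlap for each gene. Without cells over 10000 UMIs their log2 ratios were -0.43, 0.24 and 0.44, so that Col18a1 turned from -0.12.

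Within the mural class, contractile cells numbered 29 and 7 and pericytes 8 and 8. Pericytes lie on capillaries and share their basement membrane. Col4a1 was at 3095 (2384 to 3953) CPM in ND pericytes and 1142 (781 to 1613) CPM in HFD pericytes, and at 696 and 632 CPM in contractile cells, where the 2 large HFD cells held 22 and 13 of the 43 HFD UMIs. Col18a1 had no UMI in ND pericytes and 5 in HFD pericytes, while it was at 530 and 515 CPM in contractile cells. The 7 HFD contractile cells include the 2 large cells, which had 0 and 4 UMIs of Myh11 and none of Notch3. Their part in the Col18a1 level was not tested. These values rest on few cells, and a count of 0 in ND pericytes has an upper bound of 178 CPM.

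Collagen was low in every kind of immune cell. Col1a2 was at 23.8 CPM for ND and 11.9 CPM for HFD, Col3a1 at 18.6 and 9.41 CPM, and Col4a1 at 20.9 and 28 CPM. Col1a1 UMIs per Col1a2 UMI were 0.418 (0.300 to 0.575) in ND and 0.415 (0.240 to 0.694) in HFD immune cells, and 0.522 (0.486 to 0.560) and 0.452 (0.424 to 0.481) in the barcodes left out by the filter. Col4a1 UMIs per Col1a2 UMI were 0.881 (0.682 to 1.14) in ND immune cells and 2.36 (1.70 to 3.32) in HFD immune cells, and 0.766 and 3.64 in the barcodes left out. HFD had the higher ratio in immune cells and in the left-out barcodes, but also in fibroblasts, at 0.0642 and 0.168, and endothelial cells, at 39.0 and 69.7. In mural cells the HFD ratio was lower, at 3.28 and 0.0805. The part of free RNA in the immune levels was not tested.

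Macrophages, T cells and B cells held collagen at 125 (109.5 to 141), 144 (119.8 to 173) and 103 (89.5 to 118) CPM in the ND library. B cells, which are not known to make collagen, were at 24.8 CPM of Col1a2 and macrophages at 21.5 CPM. The makeup of the class differed, with macrophages 27.6% of ND and 74.4% of HFD immune cells. Of 5 members that could be compared in immune cells, Col1a2 was 2-fold lower in the HFD library and none was 2-fold higher. Among all 7536 genes compared there, 13.5% were past 2-fold, 5.36% higher and 8.15% lower.

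The enzymes, carriers and receptors that collagens need were followed with a list of 48 genes. In fibroblasts 36 of them could be compared, of which Tmem38b and Timp1 were 2-fold higher in the HFD library and Itga1 and Timp3 2-fold lower, where 1.21% of all genes were 2-fold higher and 3.92% lower. Their median log2 ratio was -0.09, against -0.16 for all genes. Serpinh1, the chaperone that binds the folded triple helix, was at 1314 and 1217 CPM, a smaller difference than that of Col1a1. P4hb, a subunit of the enzyme that hydroxylates proline, was at 306 and 334 CPM, and Loxl1, an enzyme that cross-links matrix fibres, at 679.6 and 695 CPM. Sparc, which binds collagen outside the cell, was at 3761 and 2387 CPM, a log2 ratio of -0.66 (-0.71 to -0.61). Timp1, an inhibitor of the enzymes that cut collagen, was at 70.7 and 236 CPM, and Timp3, another one, at 2019 and 709.6 CPM. Ddr2, a receptor for fibrillar collagen, was at 440 and 595 CPM.

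In endothelial cells 32 of the 48 could be compared, and Pcolce2 and Itga1 were 2-fold lower in the HFD library, as were 4.8% of all genes. Itga1, the integrin chain that binds type IV collagen, was at 666 and 299.6 CPM. In mural cells 5 could be compared, with Serpinh1 and Sparc 2-fold higher and Itga1 2-fold lower, where 8.08% of all genes were higher and 17% lower. Serpinh1 was at 355 and 2364 CPM in mural cells, and the part of the 2 large HFD cells in it was not tested. In immune cells 20 could be compared, with 7 of them 2-fold higher and Mmp9 2-fold lower, where 5.36% of all genes were higher and 8.15% lower. The 7 were Plod1, Crtap, Colgalt1, Mmp8, Mmp14, Ctsk and Timp2. Timp2 had the highest level of them, at 260 and 563 CPM in immune cells. Colgalt1 was at 69.6 and 152 CPM, Plod1 at 22 and 66.6 CPM and Crtap at 9.41 and 22.9 CPM. Mmp14, a membrane protease that cuts fibrillar collagen, was at 7.81 and 46.8 CPM there, and Ctsk, cathepsin K, which degrades collagen, at 3.73 and 21.7 CPM. The share of macrophages moved with these values, and its part in them was not tested.

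The other 17 members were seen at most 110 times in kept cells. Col13a1, a collagen of the plasma membrane, had 47 ND and 63 HFD UMIs, of which 9 and 50 were in cells that passed the mural gate. The 57 ND and 90 HFD cells that passed the mural and endothelial gates alone held 4 and 40 of them. Col19a1 had 9 UMIs in the ND library, all in cells that passed the mural gate, and none in the HFD library. Col8a2 had 57 and 4 UMIs, of which 72.1% over both libraries were in fibroblasts. Col20a1 had 72 and 19 UMIs and Col11a2 53 and 16, in several classes. Col6a5 had 46 and 17 UMIs, and Col17a1, a chain of the hemidesmosome of epithelia, 34 and 3. Col7a1, the anchoring fibril of skin, had 32 and 11 UMIs, and Col9a3 28 and 7. The others were Col11a1, with 29 and 0, Col9a1, with 8 and 6, Col26a1, with 8 and 0, Col25a1, with 8 and 1, Col2a1, with 6 and 2, Col22a1, with 5 and 4, Col24a1, with 5 and 2, and Col9a2, with 2 and 0. These counts are to be read against the ND library's larger number of UMIs.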

How the data were processed

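The authors deposited raw UMI counts per gene and barcode for each library, which their processing notes credit to Cell Ranger, UMI-tools, bcl2fastq and mm10, and a joined table that was not used here. The filter followed the study's methods: 200 genes, 200 UMIs and a mitochondrial share of no more than 30%. UMIs were summed over the cells of a class and divided by all UMIs of the class as CPM, with exact 95% Poisson intervals. Ratios have conditional binomial intervals. Because each diet is 1 library, no test was made. A gene was compared with at least 100 UMIs over both libraries and 4 in each, and 2-fold was the mark for counts. Members were named in a class from 50 UMIs. The members, the gates and the list of 48 genes were chosen with earlier results of these data known. Subset markers were Pi16, Dpp4 and Sema3c; Fmod and Wisp2; Inmt and Gdf10; and Cxcl14 for fibroblasts, and a cell joined the list with the most UMIs, at least 2. Arteriolar cells had 3 UMIs over 2 of Stc1, Hey1 and Sema3g. Doublets were scored with Scrublet in scanpy 1.11.5, which marked 0 ND cells and 1 HFD cell by its own threshold, so the highest 6% of scores were left out as an alternative. On simulated data for fibroblasts, HFD over ND, the true ratio lay inside the interval for 95.6% of 6461 genes. Those data were drawn as Poisson counts, the error that the intervals assume, so the share checks the calculation only. It says nothing of spread between cells or animals. Python 3.11.15, numpy 2.4.6, scipy 1.17.1 and pandas 2.3.3 were used. Alternatives, of which 3 were added after seeing the data (no cells over 10000 UMIs, no Fmod subset, Pi16 subset alone), are given below. UMIs were compared between genes with no correction for transcript length.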

Additional observations from a re-analysis of the deposited data

Results flagged for a closer look

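Several members had log2 ratios of HFD over ND of opposite sign in 2 classes, with counting intervals clear of each other, and these differences between classes were not tested. For Col1a1 the ratio in fibroblasts minus that in mural cells was -7.10, and the ratio in mural cells minus that in endothelial cells was 6.75. For Col1a2 the same differences were -5.77 and 5.56, and that of mural minus immune cells was 6.07. For Col3a1 they were -3.14 for fibroblasts minus mural cells and 3.96 for mural minus immune cells. For Col5a2, fibroblasts minus mural cells gave -3.19 and fibroblasts minus endothelial cells -1.61. Each value with mural cells rests on the 2 HFD cells over 10000 UMIs, and without such cells Col1a1, Col3a1 and Col5a2 in mural cells were at -1.39, -0.18 and -0.11. Mural Col1a2 kept its sign without them, at 0.20.

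Col11a1 and Col2a1, collagens of cartilage, had UMIs in ND cells that passed no gate and enter none of the comparisons, 10 and 5 UMIs. A single cell held 9 and 4 of them, along with 1 UMI each of Col9a2 and Col9a3, 7 of Sox9 and 5 of Acan.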

How the results depend on the processing

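All values are log2 ratios of HFD over ND unless called counts. Total collagen in fibroblasts, -0.39, was -0.22 at a mitochondrial limit of 20%, -0.50 without the top 6% of doublet scores, -0.25 with mixed cells counted in every gate, -0.42 with stricter gates, -0.43 with single-marker gates, -0.25 with the median of ratios and -0.21 without mitochondrial, haemoglobin and ribosomal genes. It was -0.57 with equal weight per cell, -0.53 after thinning, -0.53 without cells over 10000 UMIs, -0.45 with equal weight per subset, -0.28 without the Fmod subset and -0.27 in the Pi16 subset alone. It turned to 1.12 at a mitochondrial limit of 10%, with 7 HFD fibroblasts. The count of fibroblast members past 2-fold, 5, was 3 with single-marker gates, the median of ratios, thinning or no Fmod subset, 2 in the Pi16 subset alone and 13 with no gene minimum. For mural cells, 2.65 became 3.59 and 5.43 at the limits of 20% and 10%, 2.82 without doublet scores in the top 6%, 0.45, 1.15 and 1.69 with the 3 other gates in the order above, 2.52 with the median of ratios, 2.79 without the named genes, 1.15 with equal weight per cell, 1.17 after thinning and 0.11 without cells over 10000 UMIs. Mural Col1a1 reversed to -0.10 with single-marker gates and -1.39 without cells over 10000 UMIs, Col5a1 to -0.21 after thinning and -0.56 without those cells, and Col3a1 and Col5a2 to -0.18 and -0.11 without them. For endothelial cells, 0.42 became 0.54 and 0.64 at the 2 limits, 0.38 with single-marker gates, 0.58 with the median of ratios, 0.54 without the named genes, 0.38 with equal weight per cell, 0.36 without cells over 10000 UMIs and 0.61 with equal weight per subset. For immune cells, -0.35 became -1.01 at the limit of 10%, 0.14 with mixed cells and -0.90 with single-marker gates, and Col1a1 and Col1a2 reversed to 0.18 and 0.31 with mixed cells. The cause of these shifts was not tested. Fibroblast Col4a6 ranged from -3.39 to -2.46, Col23a1 from -3.45 to -1.87 and endothelial Col28a1 from -2.94 to -1.58, in part on fewer than 100 UMIs. No paired analysis was possible because each diet is 1 library.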

Other observations

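Mesothelial cells, which line the outer surface of organs, numbered 25 (ND) and 22 (HFD) and had collagen at 5031 (4686 to 5395) and 3850 (3516 to 4207) CPM. Col3a1 led there, at 1986 and 1299 CPM. Schwann cells, which sheathe nerve fibres, numbered 29 and 1. In the 29 ND cells collagen was at 5682 (5146 to 6258) CPM, with Col5a3 at 510.3 CPM and Col16a1 at 400 CPM. Fibroblast markers summed to 4086 and 6204 CPM in mesothelial cells, and their part in these levels was not tested.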
